A study of Homo sapiens and Mus musculus with 8 samples.

Results

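The genes described here encode the machinery that seals wounds in the plasma membrane: the ESCRT complexes with their ATPase VPS4 and the adaptor ALIX, the annexins and their S100 partners, the ferlins, the calpains, components of calcium-triggered lysosomal exocytosis, and the scaffold IQGAP1. They were chosen by name, with earlier results of these data known, as 49 genes of the 58381 listed in the count table of OVCAR-8 cells. All 49 matched a single gene identifier and all 49 passed the filter on low counts, among 16141 genes tested. OVCAR-8 is a human ovarian cancer cell line. The study compared cells given a guide against GAL4, a yeast gene with no target in human cells (sgGAL4, the control, labelled GAL4 KO), with cells given a guide against ATG9A (sgATG9A, labelled ATG9A KO), and each group has 2 libraries that the labels call biological replicates. Both groups carry a lentiviral CRISPR vector, no treatment or co-culture with macrophages is named for these libraries, and whether either line derives from a single clone is not given in the sources used here. Nothing says whether the libraries of a group came from separate cultures, so the p-values measure the spread between these libraries, which may be technical.

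A tear in the plasma membrane lets calcium into the cell, and each of these protein families acts on that signal. Annexins bind acidic phospholipids in a calcium-dependent way and cap the free membrane edges, S100 proteins bridge annexin pairs, and ferlins are large multi-C2-domain proteins that promote fusion of vesicles with the wounded membrane. Calpains are calcium-activated proteases that cut cytoskeletal and membrane proteins at the wound, and lysosomes fuse with the plasma membrane to deliver membrane and hydrolases. The calcium sensor ALG-2 (PDCD6) recruits ALIX (PDCD6IP), which in turn recruits ESCRT-III filaments that pinch off damaged membrane, and VPS4 takes the filaments apart. The same ESCRT subunits sort ubiquitinated cargo into multivesicular bodies, with ESCRT-0 and ESCRT-I binding the cargo first. ATG9A is a lipid scramblase of vesicles that feed the growing autophagosome, and the study asked what its loss does to the response of cancer cells to membrane damage by macrophages. The RNA comparison asks how far the transcripts of the repair machinery differ between the cell populations before any such damage.

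Among the promoters of these genes, 4 held the palindrome of lysosomal gene regulation, and they are shown because they belong to the lysosomal branch, ALIX and an ESCRT-III subunit. RefSeq promoter windows on GRCh38.p14, each running from 250 bases before to 50 bases after the gene start, were found for 41 of the 49 members. The palindrome TCACGTGA, the E-box that MiT/TFE factors such as TFEB and TFE3 are known to bind in lysosomal genes, occurred in 344 of 35116 windows of this length (0.98%) and in 4 of the 52 windows of these members (7.69%), those of LAMP1, MCOLN1, PDCD6IP and CHMP4A. Both strands read alike for a palindrome, and each copy also contains the shorter E-box CACGTG, found in 8 of the 52 windows of the 41 members (15.4%) and in 7.26% of all windows. In the following stretches, written 5′ to 3′ on the strand of the gene, capitals mark the TCACGTGA copies.
LAMP1, chr13:113297190-113297264, plus strand: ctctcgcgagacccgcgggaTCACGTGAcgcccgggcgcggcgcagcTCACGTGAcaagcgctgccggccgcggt
MCOLN1, chr19:7522562-7522636, plus strand: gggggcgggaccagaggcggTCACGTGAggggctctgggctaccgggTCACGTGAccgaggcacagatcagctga
PDCD6IP, chr3:33798504-33798551, plus strand: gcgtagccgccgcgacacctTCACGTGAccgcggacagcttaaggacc
CHMP4A, chr14:24213576-24213623, minus strand: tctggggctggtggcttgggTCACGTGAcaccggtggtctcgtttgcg

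The promoters of LAMP1 and MCOLN1 each hold 2 copies, a feature of 29 of the 35116 windows (0.0826%), and in both genes the copies start 27 bases apart. Those copies start 29 and 2 bases before the gene start in LAMP1, and 42 and 15 bases before it in MCOLN1. Of these 4 genes, LAMP1 passed the test for a difference between sgATG9A and sgGAL4 cells and the others did not, as described for each gene below. Matches to 3 further motifs were searched on both strands. An NF-kB-type motif was found in 4 member windows (7.69%), of ANXA11, ANXA4 and CHMP1A, against 1.91% of all windows. The AP-1-type motif TGANTCA was found in 6 member windows (11.5%), of ANXA2, CAPN2, CAPNS1 and IST1, against 7.71% of all windows, and an interferon-response-type motif was found in 1 member window (1.92%), of MVB12A, against 3.57% of all windows. A match is a run of letters in the window and no more than that.

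The 4 libraries held 22200998 to 22969233 counts assigned to genes, with TMM factors between 0.992 and 1.011. The targeted gene ATG9A (ENSG00000198925, chr2:219219380-219229717) was at 20.4 and 18.4 CPM (the count scaled to the library total after TMM normalization, as for every CPM given here) in the sgGAL4 libraries and at 12.8 and 11.5 CPM in the sgATG9A libraries, a log2 fold change of −0.68 (SE 0.10, edgeR adjusted p = 4.22e-05). Its transcript was thus lower in both libraries labelled as knockout but not absent, and a guide edits the coding sequence, so that the RNA level does not measure the protein. Of 10 macrophage markers, 7 had at most 3 counts in all 4 libraries together, and the summed level of the list was 1.63 to 2.02 CPM per library. Within that sum CD14 was lower, with 23 and 20 against 6 and 1 counts (adjusted p = 0.00364), and ITGAM higher, with 5 and 9 against 19 and 28 counts (adjusted p = 0.0161). Of 9 epithelial markers, 7 passed the filter and their summed level was 3703 to 3829 CPM in sgGAL4 and 2322 to 2328 CPM in sgATG9A, with KRT8, KRT18 and KRT7 lower and PAX8 higher, while KRT19 had 0 counts and MUC16 had 2. Of 6 fibroblast markers, 2 passed the filter and the summed level was 411 to 450.2 CPM in sgGAL4 and 246 to 255 CPM in sgATG9A, nearly all of it COL1A1, which was lower. The part of these shifts in the results on the repair genes was not tested. In bulk libraries, fewer cells with a transcript and less of it per cell cannot be told apart.

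Of the 49 repair genes, 14 passed the test at an adjusted p under 0.05 (edgeR quasi-likelihood test, two-sided, Benjamini-Hochberg over all 16141 genes), 9 of them higher and 5 lower in sgATG9A. The strongest were ANXA3, at 1.60 times its control level, and MYOF, at 0.672 times, and none of the 49 differed by 2-fold. The background was 16.3% of all genes tested, with 8.93% higher and 7.42% lower, and the members' share was 28.6%. Among genes with a mean level of at least 3 on the log2 CPM scale the background was 21.4%, against 30.4% of the 46 members in that range. At an unadjusted p under 0.05 the members numbered 22, against a background of 28.3% of all genes. The median log2 fold change was 0.03 over the members, with a range from −0.57 to 0.68, and −0.00 over all genes tested. Both sgATG9A libraries were above both sgGAL4 libraries for 19 members and below them for 14, where groups that did not overlap made up 55.3% of all genes tested. With the added requirement of an absolute log2 fold change above 1, the background was 1.92% of genes and the count of members was 0. Members were not replicates of each other, and the shares describe the list without a test of it. The count of 14 was 7 without sgGAL4 replicate 1, 10 without sgGAL4 replicate 2, 8 without sgATG9A replicate 1 and 7 without sgATG9A replicate 2, and it was 3 (CHMP2B, ANXA3 and MYOF) where genes of low count were kept in the test, which raised the genes tested to 32430.

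**Figure D1:**
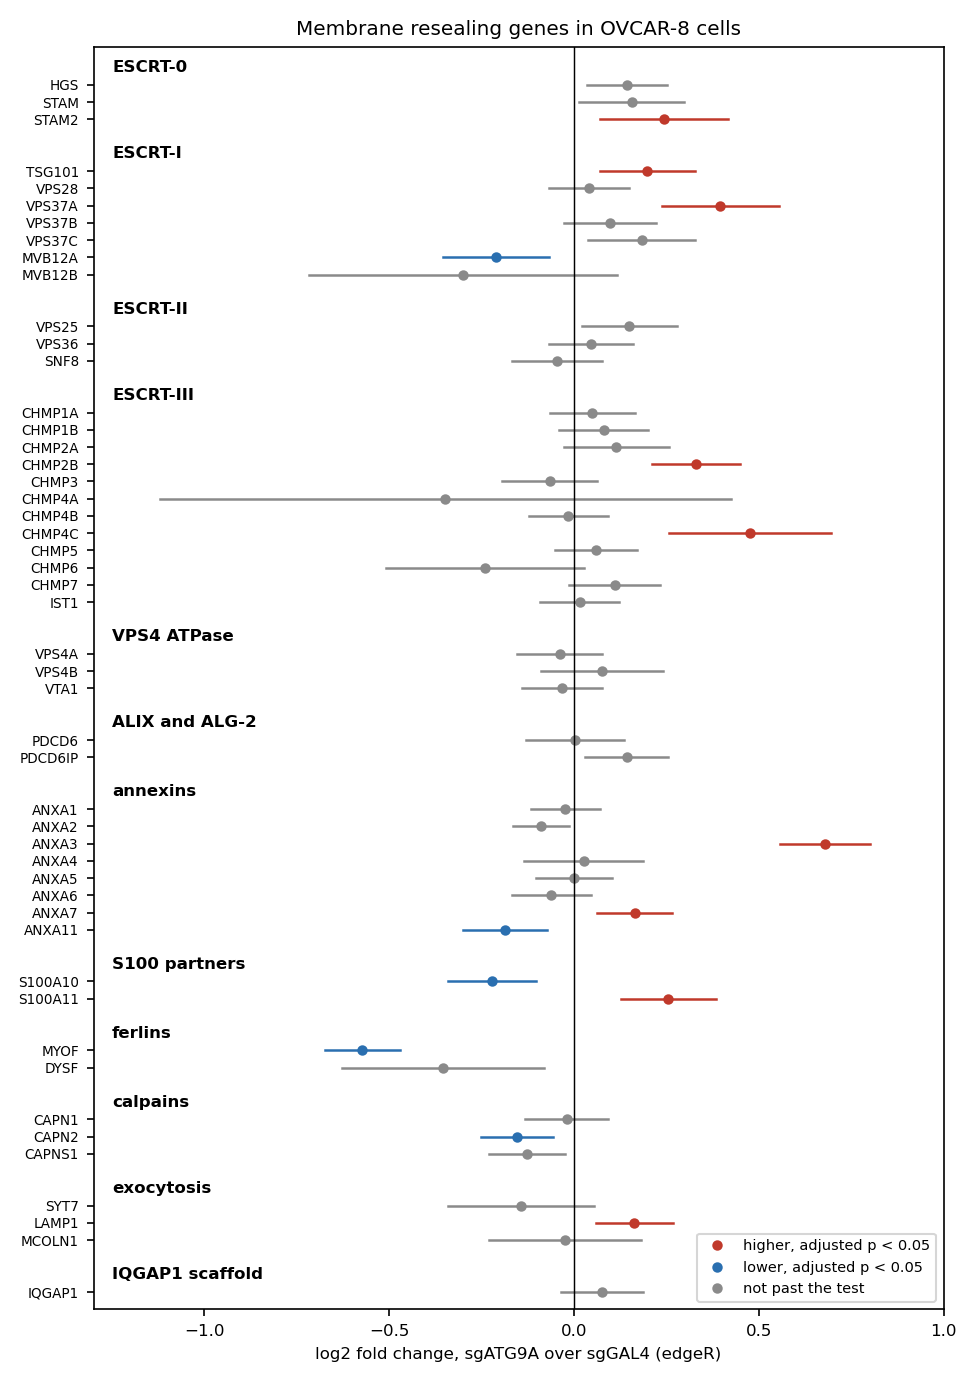
Log2 fold change of each of the 49 genes in sgATG9A over sgGAL4 OVCAR-8 cells, with bars for the 95% interval of the edgeR fit, grouped by role and coloured by whether the gene passed the test at an adjusted p under 0.05. The estimates run from −0.57 for MYOF to 0.68 for ANXA3, and 35 of the 49 did not pass.

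The ESCRT genes with VPS4 and ALIX numbered 30, of which 5 were higher and 1 was lower, with a median log2 fold change of 0.07. That is 20% of the 30, near the background of 16.3% of all genes and under the 21.4% among the more abundant genes. The annexins, S100 partners, ferlins, calpains, exocytosis genes and IQGAP1 numbered 19, of which 4 were higher and 4 were lower (42.1%), with a median of −0.02. The 5 ESCRT genes that rose were STAM2, TSG101, VPS37A, CHMP2B and CHMP4C, and MVB12A fell. The classes hold 2 to 12 genes each, and no difference between classes was tested.

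**Figure D2:**
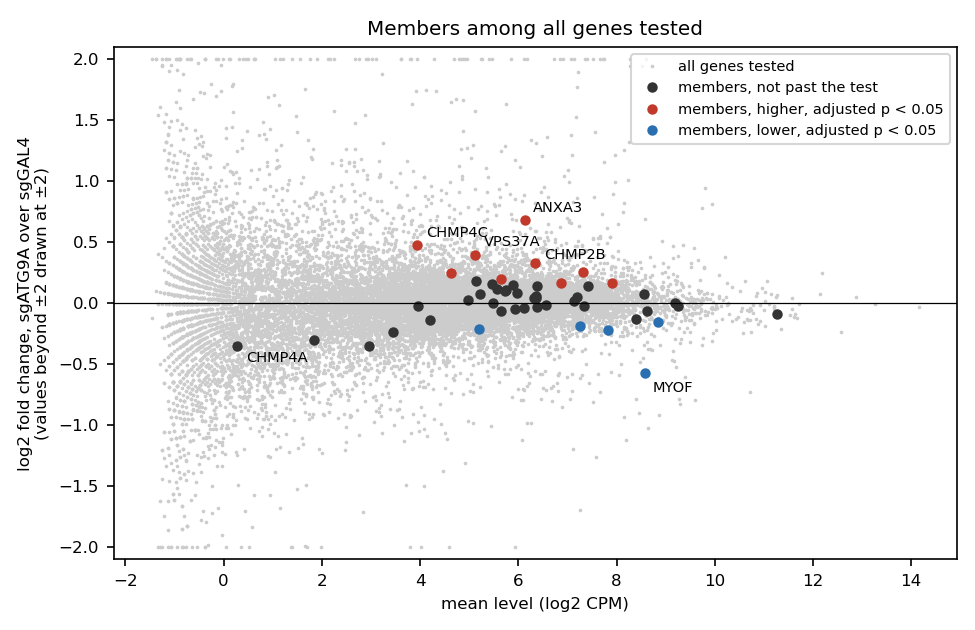
Log2 fold change against mean level (log2 CPM) for all 16141 genes tested in grey and for the 49 repair genes in dark or coloured points, with values beyond ±2 drawn at ±2. The repair genes lie within −0.57 and 0.68 over a wide span of levels, and MYOF and ANXA3 stand at the ends of their range.

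ESCRT-0 is the complex that first binds ubiquitinated cargo on endosomes and consists of HGS with STAM or STAM2. STAM2 (ENSG00000115145, chr2:152116801-152175992) was at 22.8 and 22 CPM in the sgGAL4 libraries and at 25.6 and 27.6 CPM in the sgATG9A libraries. It was thus higher in both sgATG9A libraries, by a log2 fold change of 0.24 (SE 0.08, adjusted p = 0.0489), and stands just inside the threshold. HGS, the FYVE-domain subunit that anchors the complex to endosomal lipid, was at 79.4 and 78.1 against 86.9 and 87.0 CPM, a log2 fold change of 0.14 with an adjusted p of 0.0653. STAM had a log2 fold change of 0.16 with an adjusted p of 0.134. The 3 estimates were thus all positive, with STAM2 alone past the test. Groups did not overlap for any of the 3, as was the case for 55.3% of all genes tested. STAM2 did not pass when any of sgGAL4 replicate 1 (adjusted p = 0.12), sgGAL4 replicate 2 (0.199) or sgATG9A replicate 2 (0.312) was left out.

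ESCRT-I takes over cargo from ESCRT-0, and its subunit TSG101 also binds the late-domain motifs of budding viruses. TSG101 (ENSG00000074319, chr11:18468336-18527232) was at 45.6 and 48.2 CPM in sgGAL4 and at 53.5 and 54.0 CPM in sgATG9A, a log2 fold change of 0.20 (SE 0.06, adjusted p = 0.0308). VPS37A (ENSG00000155975, chr8:17246571-17302427), one of the alternative VPS37 subunits, rose from 28.8 and 31.3 to 37.6 and 41.4 CPM. Its log2 fold change of 0.40 (SE 0.08, 95% interval 0.24 to 0.55, adjusted p = 0.000676) was the largest in ESCRT-I, and its groups were well apart. MVB12A (ENSG00000141971, chr19:17405722-17433724), an accessory subunit that binds ubiquitin, moved the other way, from 39.9 and 38.4 to 33.6 and 34.1 CPM, with a log2 fold change of −0.21 (SE 0.07, adjusted p = 0.0406). Other genes share 27.1% of the exon bases of MVB12A, and reads in shared bases were not counted for either gene.

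The remaining ESCRT-I subunits did not pass. VPS28, the core subunit next to TSG101, was at 82.0 and 80.1 CPM in sgGAL4 and 82.9 and 83.8 CPM in sgATG9A. The alternative subunits VPS37B and VPS37C had log2 fold changes of 0.10 and 0.18, the latter with an adjusted p of 0.0812. MVB12B, a low-level gene, had −0.30 with a 95% interval from −0.72 to 0.12, which is too wide to exclude a change of 1.5-fold. TSG101 was not past the test without sgGAL4 replicate 1 (adjusted p = 0.2), sgATG9A replicate 1 (0.0962) or sgATG9A replicate 2 (0.138). MVB12A was not past it when any of the 4 libraries was left out, with adjusted p values of 0.18 and 0.0775 without sgGAL4 replicates 1 and 2, and 0.179 and 0.126 without sgATG9A replicates 1 and 2. VPS37A passed in each of those 4 fits but not where genes of low count were kept in the test (adjusted p = 0.0602).

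UBAP1, another ESCRT-I subunit and a gene of interest in the study with VPS25 and CHMP6, is not among the 49 and was read beside them. It was at 38 and 34.4 CPM in sgGAL4 and at 34.6 and 38.4 CPM in sgATG9A, a log2 fold change of 0.01 with a 95% interval from −0.14 to 0.17 and an adjusted p of 0.936. Its groups overlapped, and the interval excludes changes of 1.3-fold in either direction. VPS25, the ESCRT-II subunit that nucleates ESCRT-III by binding CHMP6, was at 57.1 and 55.4 against 65.7 and 59.1 CPM, a log2 fold change of 0.15 (95% interval 0.02 to 0.28, adjusted p = 0.111, and 0.0428 without sgATG9A replicate 2). The other ESCRT-II subunits had overlapping groups. VPS36, at 77.7 and 79.3 against 78.1 and 83.9 CPM, and SNF8 had log2 fold changes of 0.05 and −0.05. CHMP6, the ESCRT-III subunit that receives that signal, was at 13.3 and 10.2 against 10.4 and 9.49 CPM, a log2 fold change of −0.24 (95% interval −0.51 to 0.03, adjusted p = 0.228), and other genes share 21.5% of its exon bases. The CHMP6 estimate was −0.04 without sgGAL4 replicate 1 and −0.42 without sgGAL4 replicate 2, so that it rests on which control library is kept. UBAP1, VPS25 and CHMP6 did not pass the test.

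ESCRT-III subunits assemble into the filaments that narrow and cut membrane necks, and 2 of its 12 genes rose while none fell, a share of 16.7% against 16.3% of all genes. CHMP2B (ENSG00000083937, chr3:87227271-87255548), a late-acting subunit that helps to recruit VPS4, was at 68.5 and 75.7 CPM in sgGAL4 and at 89.9 and 91.3 CPM in sgATG9A. The sgATG9A libraries lay close together and above both controls, with a log2 fold change of 0.33 (SE 0.06, 95% interval 0.21 to 0.45, adjusted p = 0.000211). CHMP4C (ENSG00000164695, chr8:81732434-81759515), the paralog of the main filament subunit that also serves the abscission checkpoint, was at 12 and 13.6 against 16.7 and 18.9 CPM. It rose by 0.48 on the log2 scale (SE 0.11, 95% interval 0.26 to 0.70, adjusted p = 0.00257), the largest estimate among the 30 ESCRT, VPS4 and ALIX genes, and it did not pass without sgGAL4 replicate 1 (adjusted p = 0.0701). CHMP4B, the main filament subunit, was at 95.6 and 94.3 against 96.0 and 91.8 CPM, a log2 fold change of −0.02 with an adjusted p of 0.888. Per kilobase of exon the CHMP4 genes in sgGAL4 cells ranked CHMP4B at 57.7, CHMP4C at 6.86 and CHMP4A at 0.524 CPM per kb. That order also held in CPM. Levels per kilobase are a rough scale here and below, since the labels name a 3′ kit and counts may not scale with exon length.

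The other ESCRT-III genes gave no call. CHMP1A was at 149.5 and 139 against 154 and 144 CPM, with a log2 fold change of 0.05 and overlapping groups. CHMP1B, CHMP2A, CHMP5, CHMP7 and IST1 had log2 fold changes from 0.02 for IST1 to 0.11 for CHMP2A and CHMP7, and CHMP3 had −0.07. CHMP4A stood at 1.65 and 0.88 against 1.10 and 0.879 CPM, from 102 counts in all, and its interval ran from −1.12 to 0.42. Since 68.8% of its exon bases are shared with other genes and reads in shared bases were dropped, its level is uncertain. The VPS4 group of VPS4A, VPS4B and the cofactor VTA1, which recycle the filaments, had log2 fold changes of −0.04, 0.08 and −0.03, with VTA1 at 84.9 and 84.0 against 81.9 and 83.2 CPM. These values lay close to the controls. PDCD6IP, the ALIX gene, was at 157 and 168 against 176 and 182 CPM, a log2 fold change of 0.14 (95% interval 0.03 to 0.25, adjusted p = 0.0806, and 0.0315 without sgGAL4 replicate 2), while its calcium-sensing partner PDCD6 had 0.00 with an interval from −0.13 to 0.14.

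Annexins made up 8 of the members, and ANXA3 showed the largest difference of all 49. ANXA3 (ENSG00000138772, chr4:78551519-78610451), a calcium-dependent phospholipid-binding protein, was at 54.0 and 53.7 CPM in sgGAL4 and at 90.1 and 82.3 CPM in sgATG9A. Its groups were far apart relative to the spread within them, with a log2 fold change of 0.68 (SE 0.06, 95% interval 0.56 to 0.80, adjusted p = 1.11e-08). ANXA7 (ENSG00000138279, chr10:73375101-73414076), which partners with ALG-2 in membrane repair, was at 110.2 and 111 against 124 and 124 CPM, a log2 fold change of 0.16 (SE 0.05, adjusted p = 0.022). ANXA11 (ENSG00000122359, chr10:80150889-80205572), another ALG-2 partner with a long N-terminal tail, was lower, at 155 and 169 against 143 and 142 CPM, a log2 fold change of −0.19 (SE 0.05, adjusted p = 0.0213). These 2 annexins on chromosome 10 thus moved in opposite directions by small amounts. ANXA7 was not past the test when any of the 4 libraries was left out (adjusted p = 0.144 and 0.068 without sgGAL4 replicates 1 and 2, 0.113 and 0.101 without sgATG9A replicates 1 and 2). ANXA11 was not past it without sgGAL4 replicate 2 (log2 fold change −0.12, adjusted p = 0.178), sgATG9A replicate 1 (0.0959) or sgATG9A replicate 2 (0.0684).

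The annexins that are best known for binding wound edges were near their control levels. ANXA2 was at 2595 and 2500.4 against 2431 and 2358 CPM, a log2 fold change of −0.09 (95% interval −0.17 to −0.01, adjusted p = 0.106, and 0.0322 without sgGAL4 replicate 2). ANXA1 was at 618 and 603 against 602 and 599 CPM, and ANXA5 at 560.4 and 615 against 579.9 and 596 CPM, with log2 fold changes of −0.02 and 0.00. ANXA4 and ANXA6 had overlapping groups, with log2 fold changes of 0.03 and −0.06. In sgGAL4 cells ANXA2 had the highest level of the 8 annexins both in CPM and per kilobase of exon, at 289 CPM per kb, against 194 for ANXA5 and 134 for ANXA1.

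S100A10 and S100A11 are small EF-hand proteins that bind the N termini of ANXA2 and of ANXA1 and ANXA2, and their genes lie 38116 bases apart on chromosome 1. They moved in opposite directions. S100A10 (ENSG00000197747, chr1:151982915-151994390) was at 229 and 259 CPM in sgGAL4 and 211 and 208 CPM in sgATG9A, a log2 fold change of −0.22 (SE 0.06, adjusted p = 0.00915). S100A11 (ENSG00000163191, chr1:152032506-152047907) was at 134 and 157 against 174 and 173 CPM, a log2 fold change of 0.25 (SE 0.06, adjusted p = 0.00577). In both genes the sgGAL4 libraries differed from each other more than the sgATG9A libraries did. S100A10 was not past the test without sgGAL4 replicate 2 (log2 fold change −0.13, adjusted p = 0.134) or sgATG9A replicate 2 (0.0507), and S100A11 was not past it without sgGAL4 replicate 1 (log2 fold change 0.14, adjusted p = 0.136).

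**Figure D3:**
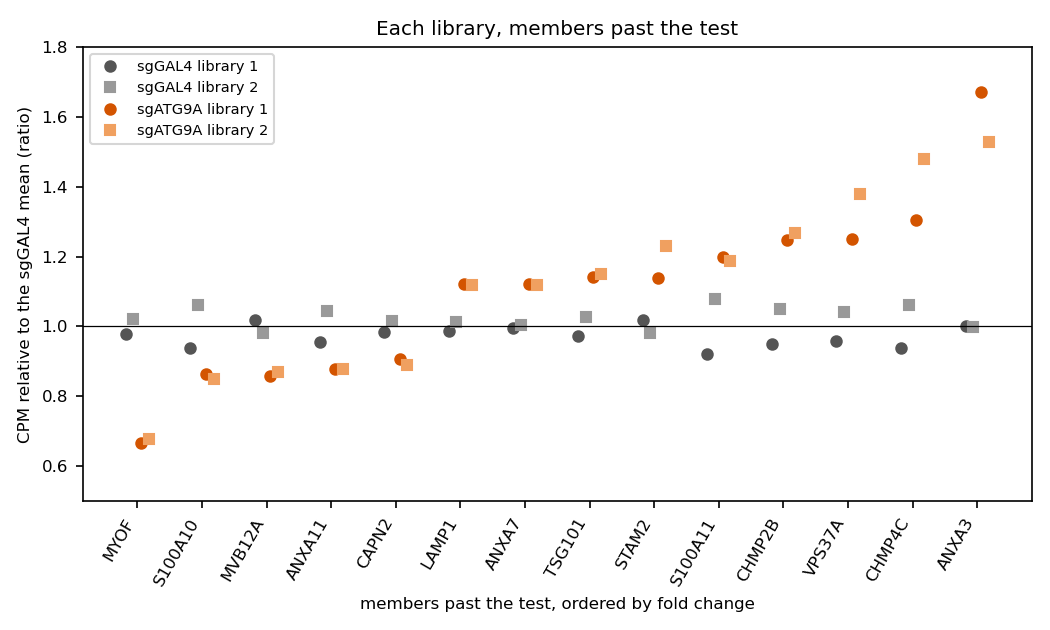
CPM of each of the 4 libraries divided by the sgGAL4 mean, for the 14 genes past the test, ordered by fold change, with grey points for sgGAL4 and orange points for sgATG9A. The orange points of MYOF and ANXA3 lie farthest from 1, at mean ratios of 0.672 and 1.60. In all 14 genes both orange points lie on the same side of both grey points, as in 55.3% of all genes tested. The 14 were selected by a test on these same libraries, so their separation is no further evidence.

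The ferlins of the list, MYOF and DYSF, were both at lower values in sgATG9A, and MYOF passed the test. MYOF (ENSG00000138119, chr10:93306429-93482317), myoferlin, which acts in membrane fusion and receptor recycling in non-muscle and cancer cells, was at 445 and 465 CPM in sgGAL4 and at 303 and 308 CPM in sgATG9A. Its log2 fold change was −0.57 (SE 0.05, 95% interval −0.67 to −0.47, adjusted p = 8.38e-09), the largest decrease of the 49, and the libraries of each group lay close together. DYSF, dysferlin, the ferlin of muscle membrane repair, was at 8.66 and 8.54 against 6.49 and 6.94 CPM, a log2 fold change of −0.36 (95% interval −0.63 to −0.08, adjusted p = 0.0714). MYOF was the more abundant ferlin on either scale, with 53.7 against 1.03 CPM per kb in sgGAL4 cells.

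The calpains gave 1 call. CAPN2 (ENSG00000162909, chr1:223701593-223776018), the catalytic subunit of m-calpain, was at 476 and 491 CPM in sgGAL4 and 438 and 430.4 CPM in sgATG9A, a log2 fold change of −0.15 (SE 0.05, adjusted p = 0.0258). Its groups did not overlap, but the difference was small, and it did not pass without sgGAL4 replicate 2 (adjusted p = 0.0823), sgATG9A replicate 1 (0.138) or sgATG9A replicate 2 (0.256). CAPNS1, the regulatory subunit shared by both calpains, was at 347 and 356 against 326 and 317 CPM, a log2 fold change of −0.13 with an adjusted p of 0.0834. CAPN1, the catalytic subunit of mu-calpain, had −0.02 and overlapping groups.

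Of the lysosomal exocytosis genes, LAMP1 rose. LAMP1 (ENSG00000185896, chr13:113297241-113323672), a lysosomal membrane glycoprotein whose appearance on the cell surface is the usual readout of lysosomal exocytosis, was at 224 and 229.8 CPM in sgGAL4 and 255 and 254 CPM in sgATG9A. Its log2 fold change was 0.16 (SE 0.05, 95% interval 0.06 to 0.27, adjusted p = 0.0279). The transcript level says nothing of how much protein is at the surface, and the call was lost without sgGAL4 replicate 1 (adjusted p = 0.0965), sgATG9A replicate 1 (0.166) or sgATG9A replicate 2 (0.15). MCOLN1, the lysosomal calcium channel TRPML1, was at 15.7 and 15.2 against 15.7 and 14.7 CPM, a log2 fold change of −0.02 (95% interval −0.23 to 0.18, adjusted p = 0.909). SYT7, the calcium sensor of lysosomal fusion, was at 19.3 and 19.0 against 16.3 and 18.4 CPM, a log2 fold change of −0.14 with an adjusted p of 0.354. IQGAP1, a scaffold of the cortical actin network that the study examined as a partner of ATG9A, was at 369 and 369 against 367 and 410.3 CPM, a log2 fold change of 0.08 (95% interval −0.03 to 0.19, adjusted p = 0.382).

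For the 35 genes that did not pass, log2 fold changes ran from −0.36 to 0.18, and the intervals reached a median of 0.12 to either side of the estimate. The intervals of 32 of them lay within a 1.5-fold change in either direction, and those of 31 within 1.3-fold. The exceptions at 1.5-fold were MVB12B, CHMP4A and DYSF, all genes of low level. A missed threshold does not show equal levels, but for those 32 genes a change of more than 1.5-fold lies outside the interval.

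Ratios between related or partner genes, taken within each library, need no scaling between libraries. After the values had been seen, 14 such pairs were formed, most of them around a gene already past the test, so that their direction and separation follow from that choice and the ratios only describe the pairs. With 2 libraries a group the exact permutation test cannot go below p = 0.333, so no call is made. The log2 ratio of S100A10 to S100A11 was 0.77 and 0.73 in sgGAL4 and 0.28 and 0.27 in sgATG9A, a difference of −0.48. ANXA11 to ANXA7 went from 0.49 and 0.60 to 0.20 and 0.20, a difference of −0.35. Both are pairs whose members moved in opposite directions, so the ratios show larger differences than either gene alone.

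Within ESCRT, the ratios set a subunit against the paralog that can take its place. CHMP4C to CHMP4B was −2.99 and −2.79 in sgGAL4 and −2.52 and −2.28 in sgATG9A, a difference of 0.49 on the log2 scale. VPS37A to VPS37B was −0.81 and −0.74 against −0.55 and −0.41, a difference of 0.30. CHMP2B to CHMP2A was 0.65 and 0.68 against 0.79 and 0.96, a difference of 0.22. VPS37A to VPS37C gave a difference of 0.21. The CHMP4C ratio thus moved about as much as the gene itself, whose log2 fold change was 0.48. The ratios of VPS37A and CHMP2B moved less than those genes did, at log2 fold changes of 0.40 and 0.33. Their reference genes VPS37B, VPS37C and CHMP2A also had positive estimates, of 0.10, 0.18 and 0.11. The ratios of STAM2 to STAM, CHMP1B to CHMP1A and VPS4B to VPS4A overlapped between groups. S100A10 to ANXA2, its binding partner, was −3.50 and −3.27 against −3.53 and −3.50, so that this pair barely separated.

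**Figure D4:**
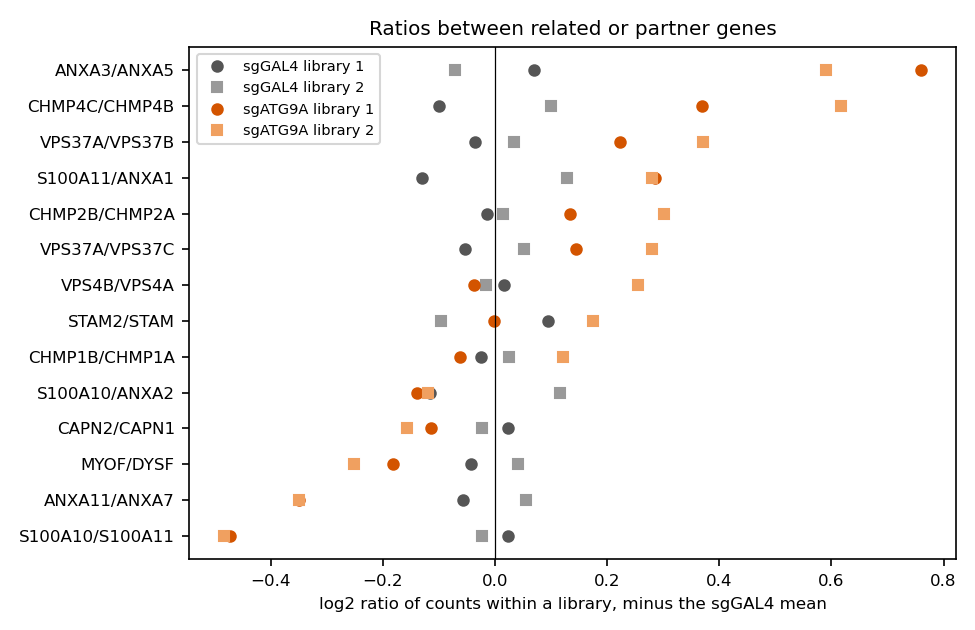
Log2 ratio of the counts of 14 gene pairs within each library, minus the mean of the sgGAL4 libraries, with grey points for sgGAL4 and orange points for sgATG9A. ANXA3 to ANXA5, CHMP4C to CHMP4B and S100A10 to S100A11 show the largest differences between group means, at 0.67, 0.49 and −0.48.

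Other genes of the same pathways were read from lists of names, 27 for ESCRT and its partners and 52 for membrane repair. All 27 ESCRT-related genes were tested, and 7 were higher and 3 lower, with a median log2 fold change of 0.01. These make up 37.0% of the list, against 16.3% of all genes tested and 21.4% of the more abundant ones. Apart from UBAP1L and VPS37D, every listed gene was above 3 on the log2 CPM scale, so the second background is the closer one. The list was chosen with earlier results of these data known, and its share was not tested. DESeq2 did not call VPS37D (adjusted p = 0.0549), CC2D1B (0.219), STAMBP (0.228), TOM1L2 (0.0655) or BROX (0.102), and it kept the other calls. NEDD4L, a ubiquitin ligase that feeds cargo to ESCRT, rose from 52.2 and 56.1 to 75.3 and 79.8 CPM (log2 fold change 0.52, adjusted p = 9.61e-07). Its relative NEDD4 rose from 172 and 158 to 222 and 240.4 CPM (0.48, adjusted p = 1.45e-06). TOM1L1, an adaptor that binds ubiquitin and TSG101, rose from 35.1 and 34.9 to 46.7 and 43.7 CPM (0.37, adjusted p = 0.000435). All 3 of these rose in every fit with a library left out. CEP55, which recruits ESCRT to the midbody, fell from 130 and 121 to 107 and 111 CPM (−0.20, adjusted p = 0.00907), but was not past the test without sgGAL4 replicate 1 (0.168) or sgATG9A replicate 1 (0.105). TOM1L2, a relative of TOM1L1, fell from 33.8 and 36.4 to 27.7 and 29 CPM (−0.31, adjusted p = 0.0063), with an adjusted p of 0.0867 without sgGAL4 replicate 2 and 0.0505 without sgATG9A replicate 1. VPS37D, another VPS37 gene, was at 4.51 and 4.0 against 2.43 and 1.98 CPM (−0.95, adjusted p = 0.00273), the opposite direction to VPS37A, with an adjusted p of 0.0541 without sgGAL4 replicate 1.

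Of the 52 membrane repair genes, 48 were tested, and 4 were higher and 5 lower, with a median log2 fold change of −0.06. At 18.8% of the 48 tested, this was near the 16.3% of all genes tested. The 5 that fell were GSN, CAV1, CAVIN1, EHD2 and EHD1. GSN, gelsolin, which severs actin filaments in a calcium-dependent way, fell from 108 and 99.5 to 70.7 and 68.1 CPM (log2 fold change −0.58, adjusted p = 5.73e-08). CAV1, the main structural protein of caveolae, fell from 427 and 429 to 312 and 316 CPM (−0.45, adjusted p = 3.24e-07), with values of −0.29 for CAVIN1, which coats caveolae, and −0.27 for EHD2, which sits at their necks (adjusted p = 5.73e-05 and 0.000918). SYT1, a calcium sensor of exocytosis, was the largest of the 4 that rose, from 10.1 and 7.08 to 15.2 and 14.9 CPM (0.81, adjusted p = 0.000106). The others were MCOLN2, a relative of MCOLN1, at a log2 fold change of 0.57 (adjusted p = 0.0141), ATP2B1, a calcium pump of the plasma membrane, at 0.39 (adjusted p = 0.000651, and 0.26 without sgGAL4 replicate 1), and TFE3, one of the factors that bind the E-box shown above, at 0.18 (adjusted p = 0.0235). MCOLN2 was not past the test without sgGAL4 replicate 1 (adjusted p = 0.245) or sgATG9A replicate 1 (0.173), and TFE3 was past it only without sgATG9A replicate 2 (adjusted p = 0.144 and 0.0844 without sgGAL4 replicates 1 and 2, 0.234 without sgATG9A replicate 1). With genes of low count kept in the test, SYT1 (adjusted p = 0.0671) and ATP2B1 (0.124) were not past it either. EHD1 was not past it without sgGAL4 replicate 1 (0.0759) or sgATG9A replicate 2 (0.234). TFEB, a relative of TFE3, and SMPD1, the acid sphingomyelinase released by lysosomal exocytosis, were at −0.25 and −0.15 and did not pass (adjusted p = 0.571 and 0.539). TRIM72 and ANXA13 had 0 counts over the 4 libraries, which does not exclude an expected total of up to 3 counts.

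**Figure D5:**
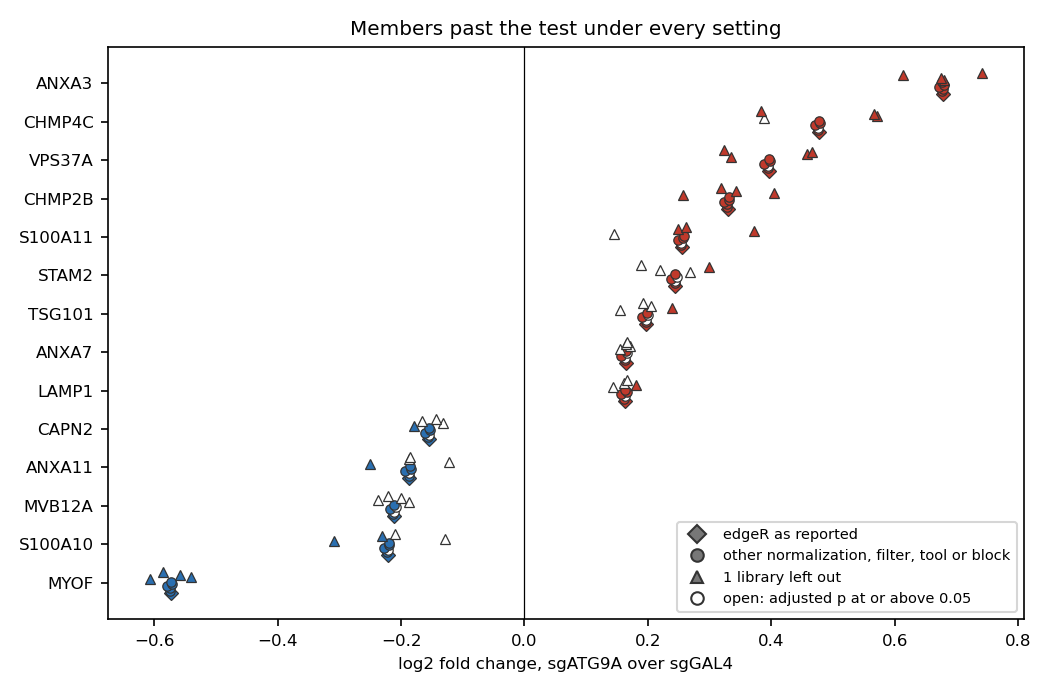
Log2 fold change of the 14 genes past the test under the reported edgeR fit, under other normalizations, filters, tools or a replicate block, and with 1 library left out, with open symbols where the adjusted p was at or above 0.05. CHMP2B, ANXA3 and MYOF have filled symbols under all 9 alternatives, and every symbol lies on the same side of 0 as the reported value. The alternatives reuse the libraries by which the genes were selected, so that a kept side is close to fixed by that choice.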

How the data were processed

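Gene-level read counts of OVCAR-8 cells, deposited as whole numbers per gene, were analysed for 2 sgGAL4 and 2 sgATG9A libraries. Per the labels the authors used cutadapt, FastQC, STAR and featureCounts on GRCh38. The labels name a 3′ kit and the study's methods paired-end sequencing. Whether counts scale with exon length is thus not known, and levels per exon length are rough. Counting was unstranded and dropped reads lying in 2 genes. Names and positions came from GENCODE release 29 (58261 of 58381 identifiers matched).

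Counts were filtered (filterByExpr), TMM-scaled and fitted with edgeR 4.0.16 (glmQLFTest, R 4.3.3) as sgATG9A against sgGAL4, without a block. SE is |log2 fold change|/sqrt(F), and 95% intervals use the fit's degrees of freedom. DESeq2 1.42.0 was one of 9 alternatives. The test was also run on counts simulated from the spread of the fit itself, which cannot check the assumptions of that fit. Members past the adjusted p of 0.05 get full values, as do those the study took up and the most abundant of each class. Of the other lists, UBAP1 and up to 3 called genes in each direction by size were named by rule, and further genes, the ratios and the motifs were chosen after values were seen. The members and lists were chosen with earlier results of these data known. Exon overlap was read from GENCODE, and promoter windows from RefSeq. Single-cell files of mouse tumours were not used here.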

Additional observations from a re-analysis of the deposited data

How the results depend on the processing

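CHMP2B, ANXA3 and MYOF passed the test under all 9 alternatives, and none of the 14 called genes changed direction under any of them. The alternatives reuse the libraries by which the 14 were selected, so that a kept direction is close to fixed by that choice. Without a filter, 32430 genes were tested, 943 were called, and 2 members were higher and 1 was lower. The adjusted p of the 11 members lost there ran from 0.0602 to 0.196. DESeq2 called 1449 genes, 196 of them past a 2-fold change against 310 with edgeR, and did not call STAM2 (adjusted p = 0.269), TSG101 (0.185), MVB12A (0.249) or ANXA7 (0.0853). At least 50 counts in each of 2 libraries left 194 genes past both thresholds and the same 14 members called, with CHMP4A untested, and RLE size factors called the same 14. Leaving out 1 library at a time gave 3 to 8 higher and 1 to 4 lower members, 1629 to 2064 genes called and 250 to 313 past both thresholds. A fit that leaves 1 library in a group assumes that it varies like the others.

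With the replicate number as a block, 3398 genes were called, 346 of them past both thresholds, with 11 members higher and 6 lower, HGS (adjusted p = 0.0409), PDCD6IP (0.0175) and CAPNS1 (0.0236) being the additions. Deviations of same-numbered libraries correlated at r = 0.07 over 16141 genes and 0.15 over the 10263 above 3 on the log2 CPM scale. Nothing states that the numbers mark a shared day or batch, so whether same-numbered libraries were paired is not known.

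The sign of 12 genes, none of them called, turned in 17 cases. RLE put ANXA5 at −0.00051, and the filter of 50 counts put it at −0.0060 and PDCD6 at −0.0041. With 1 library left out, log2 fold changes ran from −0.0067 to 0.097 for VPS36, −0.00095 to 0.10 for CHMP1A, −0.73 to 0.17 for CHMP4A, −0.047 to 0.016 for CHMP4B, −0.021 to 0.050 for IST1, −0.055 to 0.20 for VPS4B, −0.020 to 0.026 for PDCD6, −0.050 to 0.10 for ANXA4, −0.067 to 0.070 for ANXA5, −0.067 to 0.027 for CAPN1, −0.072 to 0.022 for MCOLN1 and −0.0052 to 0.16 for IQGAP1.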

Other observations

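Counts of some pseudogenes and overlapping genes of members were read beside them. ANXA2P2, a processed copy of ANXA2, had 217 and 206 counts in sgGAL4 and 211 and 196 in sgATG9A. CHMP1B2P, a copy of CHMP1B, had 22 and 25 against 28 and 46 counts. AL096870.2, which overlaps CHMP4A, had 13 and 10 against 7 and 2 counts. Of the 49 members, 27 share no exon bases with another gene, 22 share some, and 6 share over 20%, namely HGS, VPS37B, MVB12A, CHMP4A, CHMP6 and VPS4A, of which MVB12A passed the test.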
